A study of Gallus gallus with 12 samples.

Results

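In 4 of 12 chicken interdigit RNA-seq libraries, 53 genes stood above their level in the other 8, most of them far above. These genes are described here. The 4 libraries are both of replicate number 2 and both of replicate number 6. The genes were chosen from the measured values, out of 30108 in the table. Each of the 4 libraries had to exceed each of the other 8, the mean of the 4 had to reach 3 CPM (reads of the gene per 1000000 reads), and the mean of log2(CPM + 1) in the 4 had to exceed that in the 8 by more than 1. The difference between the 4 and the 8 is therefore how the genes were found, and it is given below as a description without a test. The table gives Ensembl chicken gene identifiers and no symbols, and the reference gene table, whose Ensembl column held 0 entries, paired none with a symbol, a chromosome or a function.

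The tissue was interdigital region 3 of the hindlimb of chicken embryos, the region between forming digits where cells die as the digits separate. Embryos received the beads at Hamburger-Hamilton stage 30, and 12 h later the tissue was collected. In 6 libraries the bead carried Noggin, a secreted antagonist of bone morphogenetic proteins (BMPs), and in 6 it carried phosphate-buffered saline (PBS), with the 2 kinds of bead on opposite sides. The labels give neither the sex of the embryos nor whether a replicate number stands for 1 embryo or a pool, so a p-value here covers only the variation among the libraries, which may be partly technical. Totals were 1624309 to 3513398 reads per library, 1793636 to 3513398 in the 4 libraries and 1624309 to 3172663 in the 8. A count of 0 allows 0.854 to 1.85 CPM, taking 3 reads as the limit and counting error only.

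One pair of libraries goes against its labels on the main axis of variation. Over the 500 most variable genes without the 53, Noggin libraries 1 to 5 lay between 13.1 and 15.7 on the first principal component (41.5% of the variance) and PBS libraries 1 to 5 lay from -18.8 to -9.40. Number 6 was the reverse, with -12.4 for the library labelled Noggin 6 and 15.5 for the one labelled PBS 6. Results on the bead are therefore given with and without number 6. Comparisons of numbers do not depend on which library of a number held which bead.

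In birds the female carries a Z and a W chromosome and the male a pair of Z chromosomes, so W-linked transcripts are found in females alone. Many genes retained on the chicken W are broadly expressed regulators that have a related copy on the Z, and some, such as HINTW, exist in several near-identical copies. The 53 genes were put forward as candidates for W-linked transcripts because of the pattern that chose them, which is no separate evidence of it. Neither the sex of the embryos nor the chromosome of any of the 53 genes could be checked here.

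The levels of the 53 genes in the 4 libraries spanned from 3.56 to 598 CPM, with a median of 28.6 CPM. A mean of at least 100 CPM was reached by 13 genes, 18 lay between 20 and 100 CPM, and 22 lay below 20 CPM. Together the 53 genes took 0.377% to 0.408% of the reads in each of the 4 libraries and 0.00738% to 0.0188% in each of the 8. The 6 most abundant held 56.7% of the reads of the group in the 4 libraries. Differences between the means of the 4 and of the 8 ran from 1.04 to 6.33 on the log2(CPM + 1) scale, with a median of 3.38 (quartiles 2.48 and 4.84). A difference above 5 was found in 11 genes, above 3 in 32 and above 2 in 48. This scale understates the contrast for genes of a few CPM.

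**Figure D1:**
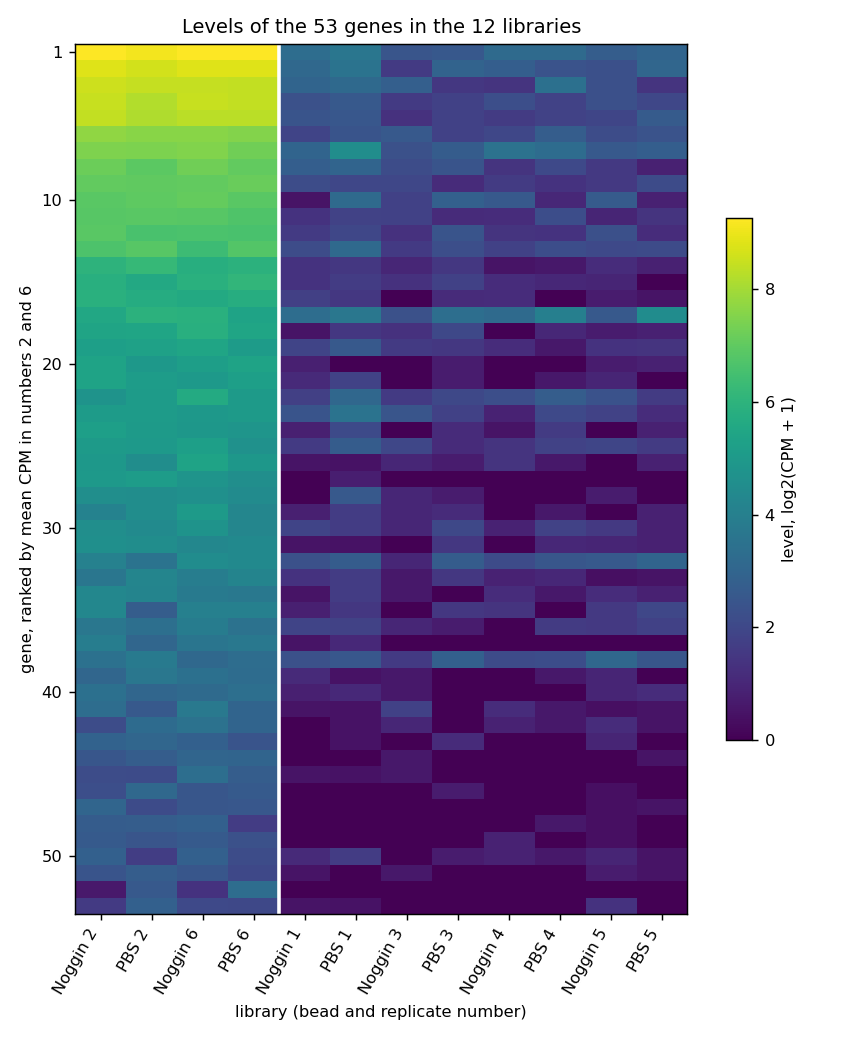
Level of each of the 53 genes (rows, ranked by mean CPM in the 4 libraries) in each of the 12 libraries (columns, named by bead and replicate number), as log2(CPM + 1) in colour. The white line separates the libraries numbered 2 and 6 from the other 8, in which levels are at or near 0 for most genes.

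The most abundant gene was ENSGALG00010011988. It stood at 609 CPM in Noggin 2, 550 in PBS 2, 616 in Noggin 6 and 617 in PBS 6, and at 4.46 to 11.6 CPM in the other 8 (median 7.63). The 4 libraries lay within a narrow band, 598 ± 32.3 CPM (SD, n = 4), and none of the 8 came near it. In ENSGALG00010013700 the 4 libraries held 447 CPM (Noggin 2), 399 (PBS 2), 447 (Noggin 6) and 453 (PBS 6), against 1.98 to 10.5 CPM in the 8 (median 6.29).

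ENSGALG00010012282 followed with 377 CPM in Noggin 2, 351 in PBS 2, 350 in Noggin 6 and 339 in PBS 6, and with 1.65 to 9.82 CPM in the 8. The levels of the 4 libraries again differed little, with an SD of 16.4 CPM around 354 CPM (n = 4). ENSGALG00010013702 averaged 338 ± 30.1 CPM in the 4 libraries and 3.30 ± 0.9995 CPM in the 8 (SD, n = 4 and 8). ENSGALG00010013706 averaged 314 ± 20.9 CPM and 3.22 ± 1.38 CPM. Lowest of these 6 was ENSGALG00010012286, with 198 ± 10.1 CPM in the 4 libraries and 3.83 ± 1.14 CPM in the 8. In each of the 6 genes the lowest of the 4 libraries stood more than an order of magnitude above the highest of the 8.

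**Figure D2:**
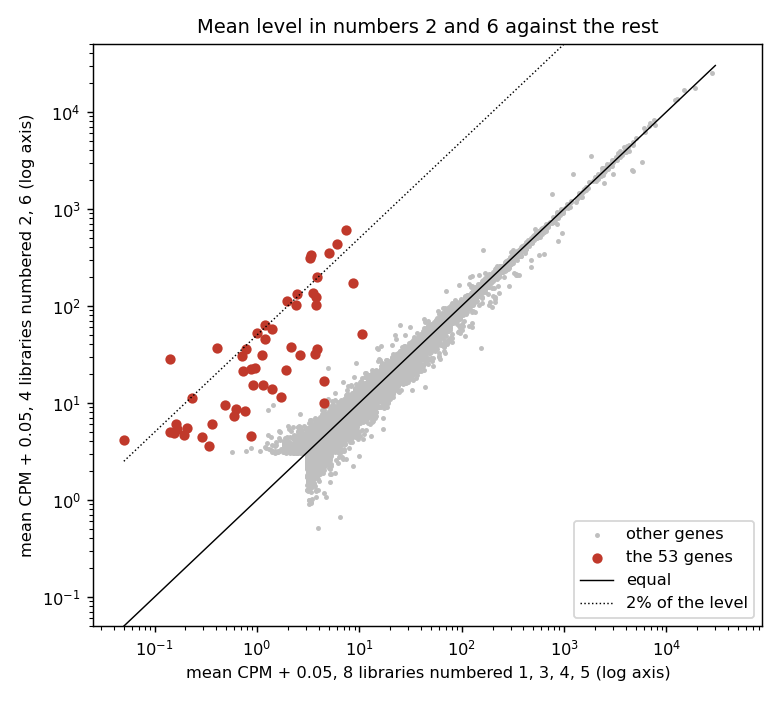
Mean CPM in the 4 libraries numbered 2 and 6 against mean CPM in the other 8, on log axes after adding 0.05, for genes averaging 3 CPM or more in either set. The 53 genes (red) leave the line of equality along which the other genes (grey) lie, and the dotted line marks 2% of the level.

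Far fewer genes were chosen by the mirrored rule, with the 8 libraries each above the 4, a mean of at least 3 CPM in the 8 and a difference below -1. It found 15 genes, against 53, and their shape was different. Their differences ran from -1.50 to -1.01 on the log2(CPM + 1) scale, their mean in the 4 libraries was 25.4% to 49.6% of that in the 8, and 0 of the 15 had a library at 0. Separation alone, without a minimum level or difference, was found in 86 of 30108 genes for the 4 above the 8 (0.286%) and in 171 for the 4 below the 8 (0.568%). Among genes averaging 3 CPM or more in the 4 libraries, 0.642% were separated upwards and 0.466% were chosen by the full rule. Both rules rest on values that chose the genes, so nothing is tested here.

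The edge of the rule was thinly populated. Just inside the difference of 1 lay ENSGALG00010021622, with 9.89 ± 2.17 CPM in the 4 libraries and 4.47 ± 1.73 in the 8 (SD, n = 4 and 8) and a log2 difference of 1.04. Its lowest value among the 4 was 7.70 CPM and its highest among the 8 was 7.56 CPM. The next inside was ENSGALG00010026488 with a difference of 1.59, at 4.53 ± 2.01 and 0.832 ± 0.647 CPM. Just outside lay ENSGALG00010011442, at 39.1 ± 3.23 and 20.8 ± 6.78 CPM with a difference of 0.94, and ENSGALG00010013347, at 16.6 ± 0.659 and 10.4 ± 2.14 CPM with a difference of 0.66. In all, 20 separated genes of at least 3 CPM had a difference of 1 or less, and 13 separated genes lay below 3 CPM, 4 of them with 0 reads in all 8 libraries.

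Each number was also read with genes chosen on the other number alone. With number 2 as the only high libraries, 102 genes met the rule, and 53 of them were above all 8 libraries in both libraries numbered 6. Over all 102, the median difference from the 8 was 2.03 on the log2(CPM + 1) scale in number 2, which chose them, and 1.72 in number 6. With a difference above 3 in number 2, 31 of 33 genes were above all 8 libraries in number 6. In the reverse direction, 89 genes met the rule on number 6 alone, and 54 of them were above all 8 in both libraries numbered 2. With a difference above 3 in number 6, 31 of 31 were. Both readings use the same 8 libraries as the low side, and 52 of the 102 and 52 of the 89 belong to the 53. Membership already requires both numbers, so these counts are a description and no separate replication. The 50 others chosen on number 2 had a median difference of 1.20 in number 2 and 0.08 in number 6. For the 37 others chosen on number 6 it was 1.16 in number 6 and 0.36 in number 2.

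Of the 53 genes, 52 had at least 1 read in the 8 libraries, and 23 had reads in every one of the 8. Presence in the 4 libraries alone, in the strict sense, therefore held for 1 gene. The pooled level of the 53 in the 8 libraries was 2.77% of that in the 4 (2086 and 38089 reads, exact 95% interval 2.65% to 2.89%, counting error only). Among the 13 genes of at least 100 CPM, the level in the 8 was 1.004% to 5.25% of that in the 4, with a median of 1.87%. Among the 18 genes of 20 to 100 CPM the median was 3.13%, and among the 22 below 20 CPM it was 6.14%.

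The share that persisted in the 8 libraries was not the same for every gene. In the most abundant gene it was 1.26% (exact 95% interval 1.06% to 1.48%). The interval of 20 genes, this one included, contained that value, 33 genes had an interval wholly above it and 0 wholly below it. Genes with few reads could not lie wholly below it. The gene with 0 reads in the 8 and 35 in the 4 had an upper bound of 5.62%. The lower bound exceeded 5% in 10 genes and 20% in 2 genes. These intervals cover counting error alone and not the spread between libraries, and the 1.26% was taken as exact, so the counts are no test between genes. The lowest share among genes with reads was that of ENSGALG00010000239, named after its values were seen, with 28.6 ± 4.73 CPM in the 4 libraries (SD, n = 4) and 2 reads in the 8, both in PBS 1, a share of 0.368% (interval 0.0443% to 1.34%).

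**Figure D3:**
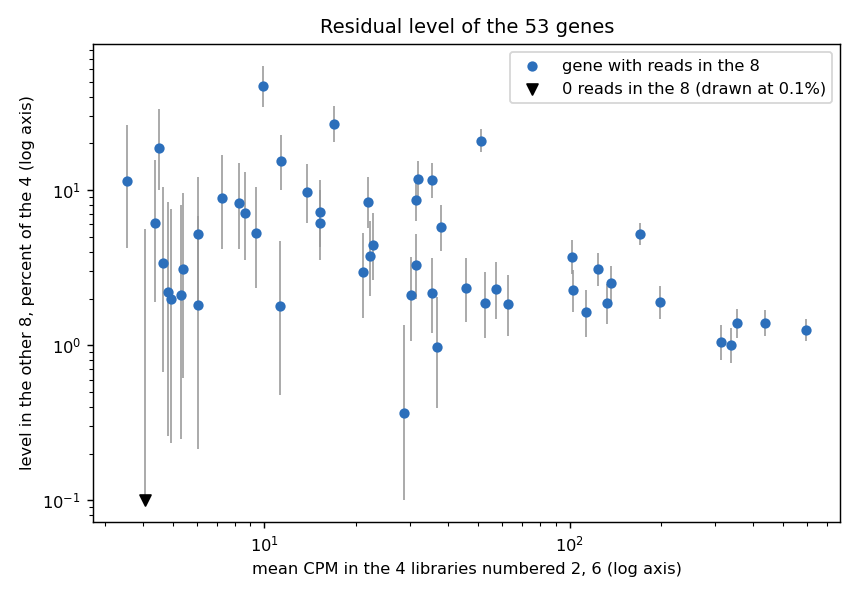
Level in the 8 libraries as a percent of the level in the 4 (pooled reads over pooled depth, log axis) against mean CPM in the 4 (log axis) for the 53 genes, with exact 95% counting intervals. The 6 most abundant genes lie between 1.004% and 1.90%, and 8 genes reach 10% or more.

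The gene with 0 reads in all 8 libraries was ENSGALG00010012836, also named after its values were seen. Its level was 23.1-fold higher in the 4 libraries, taking 3 reads over the 8 libraries together as the floor. This leaves out the counting error of its 35 reads in the 4. By the exact 95% interval its level in the 8 was at most 5.62% of that in the 4. It was also the most uneven of the 53 genes, at 0.569 CPM in Noggin 2, 5.02 in PBS 2, 1.54 in Noggin 6 and 9.06 in PBS 6. These values rest on 2, 9, 3 and 21 reads, and as labelled both PBS libraries lay above both Noggin libraries. Number 6 goes against its labels on the main axis, and without it only 1 library per bead is left. The fold change of Noggin against PBS in the 4 libraries was -1.96 ± 0.70 on the log2 scale (SE) and did not pass (limma, adjusted p = 0.9999, unadjusted p = 0.0163).

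Library by library, the summed level of the 53 genes was 4083 CPM in Noggin 2, 3773 in PBS 2, 4072 in Noggin 6 and 3904 in PBS 6. Among the 8 it was 110 CPM in Noggin 1, 188 in PBS 1, 73.8 in Noggin 3, 102 in PBS 3, 84.5 in Noggin 4, 108 in PBS 4, 96.8 in Noggin 5 and 103 in PBS 5. PBS 1 stood highest of the 8, and it was the highest library for 20 of the 53 genes, where the next, PBS 3, was highest for 8. The share over all genes is not given here, so this count does not set the 53 apart. Between 33 and 45 of the 53 genes had a read in each of the 8 libraries, and all 53 had reads in each of the 4. Without PBS 1 the pooled level in the remaining 7 was 2.43% of that in the 4.

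ENSGALG00010000262, the seventh by level, showed the largest excess of PBS 1 in CPM, though not relative to its level in the other 7. It stood at 175 CPM in Noggin 2, 173 in PBS 2, 181 in Noggin 6 and 151 in PBS 6. Among the 8 it held 22.4 CPM in PBS 1 and at most 10.4 CPM in the other 7, whose mean was 6.64 CPM. Its share in the 8, at 5.25%, was the highest of the genes above 100 CPM.

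The 53 genes lay close together in the rows of the table. Of them, 49 fell in 2 stretches that hold 186 rows, 0.618% of the table. The order of the rows is not explained in the sources used here, so it is given as a property of the table and not as a position in the genome. The first stretch runs over 42 rows (27837 to 27878) and holds 18 of the 53 genes. All 18 genes of that stretch that averaged 3 CPM or more in either set belong to the 53, and the remaining 24 rows lie below that level, 7 of them without a read in any library. In the 20 rows on each side, 22 genes reached 3 CPM, with differences of -0.39 to 0.50 on the log2(CPM + 1) scale.

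The second stretch runs over 144 rows (28291 to 28434) and holds 31 of the 53 genes among 66 of at least 3 CPM. The other 35 had a median difference of 0.25, and 3 of them exceeded 1 (at most 1.62) without separating the 4 libraries from the 8. Within this stretch, 13 rows in a row (28327 to 28339) were all among the 53. These 13 genes made up 47.1% of the summed level of the 53 in the 4 libraries. In that run 5 genes averaged 133 to 598 CPM and 8 averaged 4.37 to 11.2 CPM, and 4 of the 6 most abundant genes were among them. Near-identical copies, overlapping genes and antisense partners can share reads, and the strand setting of the counting is not given in the sources used here, so levels of single genes in the run are uncertain.

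**Figure D4:**
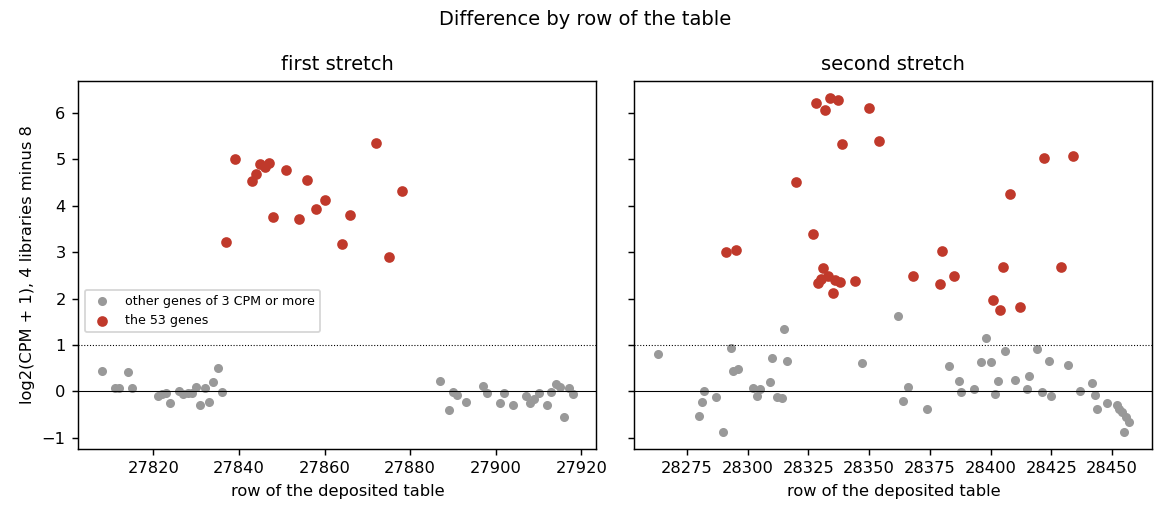
Difference of the mean log2(CPM + 1) between the 4 libraries and the other 8 against the row of the deposited table, around the 2 stretches that hold 49 of the 53 genes, for genes of at least 3 CPM in either set. In the first stretch every such gene is red, while the second holds both red and grey genes, with differences between -0.37 and 6.33.

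The levels of the genes and their log2(CPM + 1) differences were not alike in the 2 stretches. In the first the 18 genes had means of 9.37 to 170 CPM in the 4 libraries (median 36.2), differences with a median of 4.43 on the log2(CPM + 1) scale, and a level in the 8 of at most 8.62% of that in the 4. In the second the 31 genes spanned from 3.56 to 598 CPM (median 13.8), with a median difference of 2.69 and shares from 0% to 26.8%. The median shares, 2.65% and 3.09%, lay closer. The log2(CPM + 1) difference depends on level, so it does not compare the stretches apart from level. The 4 genes outside both stretches were ENSGALG00010012847, ENSGALG00010004175, ENSGALG00010021622 and ENSGALG00010026488. Their level in the 8 libraries was 11.5% to 46.8% of that in the 4, and their differences were 1.04 to 2.97. No test of these contrasts was made, because stretches and values were both seen first.

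The genes were then compared between the numbers that share them. Number 6 and number 2 gave nearly the same levels. Over the 53 genes, the mean log2(CPM + 1) of the 2 numbers correlated with Pearson's r = 0.99 and Spearman's rho = 0.98, which is a description across genes that share libraries. Number 6 was higher in 27 genes and number 2 in 26, with a median difference of 0.01 and a range of -0.49 to 0.91 on the log2(CPM + 1) scale. For the 31 genes of at least 20 CPM the range was -0.38 to 0.45. None of the 53 passed (limma on the 4 libraries, 0 at an adjusted p of 0.05 and 0 at an unadjusted p below 0.05, and the same counts by limma-voom), where 2 of 11379 genes (0.0176%) did by limma and 0 by limma-voom, with 332 at an unadjusted p below 0.05. The SE of the difference ran from 0.12 to 0.89 on the log2 scale over the 53 genes, with a median of 0.28. The size of the difference was 0.13 at the median for the 53 genes and 0.21 for all genes that averaged 3 CPM or more. Both numbers had to exceed the 8 libraries for a gene to be chosen, so genes that differ widely between them were less likely to enter. Neither the fit nor the comparison with all genes is therefore a separate check of their agreement. The correlations also reflect the wide range of levels across the 53 genes.

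Spread among the 4 libraries was smallest in the abundant genes. The coefficient of variation had a median of 5.92% among the 13 genes of at least 100 CPM, 14.7% among the 18 of 20 to 100 CPM and 27.5% among the 22 below 20 CPM, where it reached 95.1%. Relative to counting error, the chi-square of the reads over the 4 libraries per degree of freedom had a median of 1.75 for the 31 genes of at least 20 CPM, where 1 is counting error alone. It was 2.62 for 5681 other genes of 20 to 1000 CPM. Below 20 CPM the medians were 1.59 for 22 genes and 1.91 for 5514 others. These are descriptions, since genes with a wide spread were less likely to meet the rule.

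The bead labels were not used to choose the genes, but the rule still limits the bead contrast. Libraries of both beads in numbers 2 and 6 had to exceed the 8. Genes differing widely by bead there were thus less likely to enter. The bead contrast asks which transcripts of the interdigit change when BMP signalling is blocked. In bulk tissue, fewer cells of a type and less RNA per cell cannot be told apart. None of the 53 genes passed for Noggin against PBS over the 12 libraries with bead as the only term. By limma the count was 0 at an adjusted p of 0.05 and 0 at an unadjusted p below 0.05, likewise by limma-voom. Of 14144 genes, 27 (0.191%) passed by limma and 19 by limma-voom on the whole reads recovered. Over all genes, limma called 0 when any 1 library numbered 1 to 5 was left out, 527 without Noggin 6 and 658 without PBS 6. Without both libraries numbered 6 it called 1180 (8.34%), and 0 of the 53. The rule itself puts 2 high and 4 low libraries in each bead group, so the spread within groups was wide, with a median SE of 1.03 on the log2 scale against 0.22 for all genes tested. A fit without a block could thus hardly call any of the 53. With the replicate number as a block their median SE was 0.32 (limma). In that fit 0 of the 53 passed and 2 had an unadjusted p below 0.05. Over all 14144 genes 1 passed and 1646 had an unadjusted p below 0.05. In the Noggin group the summed level was 1420 ± 2059 CPM, and in the PBS group it was 1363 ± 1918 CPM (SD, 6 libraries per group). Because the rule balances the high libraries between the beads, no p is given for this difference. Without both libraries numbered 6 the Noggin mean was 34.9 CPM above the PBS mean.

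Within the 4 libraries alone, where the genes are higher, 0 of 53 passed by limma, where 1 of 11379 genes (0.00879%) did. At an unadjusted p below 0.05 there was 1 of the 53, with the same counts by limma-voom. Even in the 4 libraries 22 of the 53 genes lay below 20 CPM and were less well measured. The median SE was 0.30. This fit averages number 2 with number 6, whose libraries go against their labels on the main axis, so differences of opposite sign in the 2 numbers would cancel. Without number 6 only 1 library per bead is left and no test can be made, so each number is also given by itself. In number 2 the Noggin library was higher in 31 genes and lower in 22, with a median difference of 0.06 on the log2(CPM + 1) scale, against 0.03 for all genes of at least 3 CPM. In number 6, as labelled, Noggin was higher in 34 and lower in 19, with a median of 0.08 against 0.00. For the 31 genes of at least 20 CPM, the differences between beads ran from -0.44 to 0.46 in number 2 and from -0.42 to 0.80 in number 6. With 1 library per bead and number, these differences have no replicate check within a number.

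In the 8 libraries, 28 of the 53 genes averaged at least 1 CPM and entered a fit of the 4 Noggin against the 4 PBS libraries numbered 1, 3, 4 and 5, added after the values were seen. Their Noggin libraries had a summed level of 91.2 ± 15.6 CPM over the 53 genes and their PBS libraries one of 125 ± 41.9 CPM (SD, 4 libraries per group). A two-sided exact permutation test gave p = 0.143, where the smallest possible is 0.0286. PBS was higher in 4 of the 4 numbers, and the groups overlapped, with a highest Noggin value of 110 CPM and a lowest PBS value of 102 CPM. PBS 1, at 188 CPM, raised the PBS mean, and the medians were 90.6 CPM for Noggin and 105 CPM for PBS. The fold change was below 0 in 24 of the 28 genes and above 0 in 4, with a median of -0.24 against 0.01 for all genes tested. The split moved with single libraries: it was 16 below and 12 above without PBS 1, with a median of -0.13, and 17 below and 11 above without Noggin 4, with a median of -0.20. One gene of the 28 (3.57%) passed (limma), and 7.26% of all genes tested did.

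That gene was ENSGALG00010012847, the one with the highest level of the 53 in the 8 libraries. It stood at 8.96 CPM in Noggin 1, 3.96 in Noggin 3, 8.29 in Noggin 4 and 5.04 in Noggin 5, and at 11.9 CPM in PBS 1, 9.23 in PBS 3, 15.0 in PBS 4 and 21.8 in PBS 5. All 4 Noggin libraries lay below all 4 PBS libraries, though Noggin 1 and PBS 3 nearly met. The Noggin mean was 6.56 ± 2.43 CPM and the PBS mean 14.5 ± 5.42 CPM (SD, 4 libraries per group). Its level fell by 1.01 ± 0.30 on the log2 scale (SE, limma, adjusted p = 0.0284), or 0.0169 with the replicate number as a block.

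In the libraries where it is high, ENSGALG00010012847 stood at 46.4 CPM in Noggin 2, 60.8 in PBS 2, 58.0 in Noggin 6 and 40.6 in PBS 6. Noggin was thus lower in numbers 1 to 5 and higher in number 6 as labelled, the number whose libraries go against their labels on the main axis. In numbers 1 to 5 with the replicate number as a block, the fold change was -0.88 ± 0.23 on the log2 scale (limma, adjusted p = 0.0053), and this was the only one of the 53 genes (1.89%) that passed, where 11.1% of all genes did. Over all 12 libraries it was -0.65 ± 0.75 (limma, adjusted p = 0.81), or 0.293 with the block. In the 8 libraries the call was lost without Noggin 3 (adjusted p = 0.121), PBS 4 (0.0787), Noggin 5 (0.0885) or PBS 5 (0.176) by limma, with the fold change between -1.18 and -0.80 over the 8 fits that left out 1 library.

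**Figure D5:**
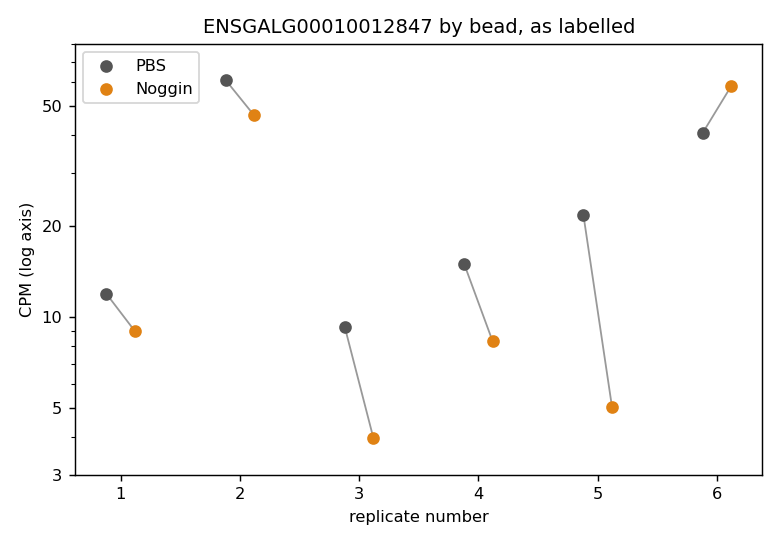
CPM of ENSGALG00010012847 (log axis) by replicate number, with the Noggin and PBS libraries of a number joined by a line. PBS is the higher library in numbers 1 to 5, from 9.23 to 60.8 CPM, and the lower one in number 6, at 40.6 CPM as labelled.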

How the data were processed

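The authors deposited 1 table of 30108 genes by 12 libraries. Its natural log values, ln(CPM + 1), were made by the authors by scaling each library's reads to CPM, adding 1 and taking the natural log, as the deposited values themselves show: the exponential minus 1 sums to 1000000 in every column and is a whole multiple of 1 read within 0.001 read for 100% of values above 0, which gave the reads per gene. Lasy-Seq libraries started from 180 ng of RNA, per the labels' protocols. Tools listed in the submitters' processing notes are Salmon, BWA 0.7.17-r1188 and fastp 0.21.0. Which genome build and counting options were used, and whether molecular identifiers were, is not given in the sources used here. Every column was used, and 0 were left out. Columns were tied to libraries by their codes, and bead and number were taken from the titles.

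The genes, lists and tests were chosen with earlier results of these data known. A test for counts had been named in case the table held them. Because it holds log CPM, tests were made on log2(CPM + 1) with limma 3.58.1 (R 4.3.3), with a trended prior variance, robust shrinkage and Benjamini-Hochberg adjustment over all genes tested, at 0.05. CPM were scaled by trimmed means of M-values (TMM, factors 0.981 to 1.03). Genes entered at a mean of 1 CPM over 12 libraries or of 3 CPM over the 4, which every one of the 53 reaches. The steps were tested on simulated data. No simulated gene was set high in numbers 2 and 6 alone, so the pattern of the 53 was not covered. Named genes were the 6 highest in the 4 libraries, the 3 highest in the 8, the 2 nearest the edge on each side and those called. Others are marked where named. Lists of W-linked, Z-linked and tissue markers had been written, but with no symbols they were not analysed here. No 2 libraries were duplicates (chi-square per degree of freedom at least 2.83 over 66 pairs). Exact intervals are Clopper-Pearson.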

Additional observations from a re-analysis of the deposited data

Results flagged for a closer look

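About 1 set in 20 would hold a library far from the rest of its bead group by chance, where the rule plays no part. Of the 26 sets of 6 values looked at, 2 held such a library. Both are values on the first principal component, computed without the 53 genes: -12.4 for the library labelled Noggin 6, with Noggin libraries 1 to 5 on the opposite side, and 15.5 for the library labelled PBS 6, with PBS libraries 1 to 5 on the opposite side. The 53 genes were high in both of these libraries. In the levels of 10 of the 53 genes (the 6 highest in the 4 libraries, 2 more that are among the 3 highest in the 8, and the 2 just inside the edge of the rule), and in the summed level of the 53, no library of a bead group stood apart in this way. The rule puts 2 high and 4 low libraries in each bead group. Where the 2 lie far above the 4, as in the summed level, no single library could stand apart, so nothing follows from this.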

How the results depend on the processing

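The count of 53 genes lay between 37 and 73 under other scalings, other minimum levels and differences above 0 or 2. It was 32 with a difference above 3. Leaving out 1 library gave 53 to 64 genes, 51 to 53 of them shared. With both libraries numbered 2 left out it was 89 and with both numbered 6 left out 102, and 52 of the 53 were shared each time; fewer libraries then had to be separated. The count of the 53 genes that differed by bead (0) stayed at 0 under all planned settings but 1. With the replicate block and without number 6 it was 1. Planned fits without a block could hardly call any of the 53, because the rule puts high and low libraries in each bead group. Of the 53, 25 averaged below 1 CPM in the 8 libraries and met the minimum of 1 CPM over 12 only through the 4. The added fits of the 8 libraries gave 1, with or without the replicate block, and 0 to 1 when 1 library was left out. In the 4 libraries, 0 of the 53 passed for the bead and for number 6 against number 2 under other scalings, filters and fits. The replicate block and bead as a second term were included. Over all genes these fits called at most 7 of 21548 for the bead and 34 of 21548 for the numbers. Counts of 0 therefore do not set the 53 genes apart. Leaving out 1 library from 12 moved the difference in summed level from -475 to 565 CPM. It was below 0 without a high Noggin library or a low PBS library, and above 0 without a low Noggin library or a high PBS library. It was -33.9 CPM in the 8 libraries, against 57.1 CPM for all 12. In the 8 an exact permutation test gave p = 0.143, or 0.125 with the replicate number as a block. With 4 numbers 0.125 is the smallest p the blocked test can give, so it could not fall below 0.05. That limit was reached because PBS was higher in each of these numbers. Without 1 of the 8 libraries the pooled level in the 8 was 2.43% to 2.88% of that in the 4.

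In the main fits numbers were not treated as pairing the libraries, and fits with the replicate number as a block are given beside them. Deviations from the group means over 14091 genes other than the 53 correlated at -0.24 to 0.10 within numbers. The study's methods as given in the labels state no block, and the main fits followed this. The correlation was not above 0.1 for any number. Among the 6 libraries of the other bead, the best correlate was the one of the same number for 4 of 12 libraries. The lowest correlation, -0.24, was that of the number whose libraries go against their labels on the main axis. The group means followed the labels and included these libraries. The check therefore cannot decide whether numbers pair the libraries. It also left out the 53 genes, whose rule requires both libraries of a number to be high or low together. The beads lay on opposite sides, so libraries of a number may share embryos, and only the blocked fits allow for that. The 28 genes tested in the 8 libraries had a median SE of 0.43 on the log2 scale, against 0.26 for all genes tested there. Levels there were low, with a median of 1.08 CPM over the 53 genes.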
